A study of Mus musculus with 6 samples.

Results

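Npy4r and the rest of the neuropeptide Y system, namely the peptide gene Npy and the receptor genes Npy1r, Npy2r and Npy5r, were examined in bulk RNA-seq of mouse aorta. These 5 genes were taken by symbol from the 55487 genes in the count table, and each matched 1 row. They were chosen by the difference of Npy4r between the same 2 groups that are compared here, so the values of the 5 genes in that comparison are given as a description with no test. The tissue came from 3 Control and 3 iSM KO male C57BL/6 mice, with the adventitial layer removed before extraction. All 6 animals carried the Myh11-CreERT2 transgene, a tamoxifen-activated recombinase driven by a smooth muscle promoter on the Y chromosome. All received tamoxifen from 8 weeks of age, then 2 weeks of washout before another 60 days. The iSM KO mice were homozygous for a floxed Prdm16 allele and the controls had wild-type Prdm16, which encodes a transcriptional regulator. The comparison therefore addresses how deletion of Prdm16 in adult smooth muscle relates to expression of neuropeptide Y receptors in the vessel wall.

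Neuropeptide Y is released with noradrenaline from the sympathetic nerve endings around arteries. Its receptors are G protein-coupled receptors that act through inhibitory Gi/o proteins. Npy1r encodes the receptor that mediates contraction of vascular smooth muscle by the peptide. Npy2r encodes a receptor that acts largely on nerve terminals to restrain release, and Npy5r one best known for feeding control. Npy4r encodes the receptor that prefers pancreatic polypeptide, the product of Ppy, over neuropeptide Y.

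The libraries held from 24911584 to 40460411 counts, and Control 3 was the smallest. Of all genes, 16565 passed the filter on low counts and were tested, and these included Npy4r and Npy1r but not Npy, Npy2r or Npy5r. Levels are given as CPM, counts per 1000000 counts of the normalised library total, and per kilobase of exon where genes are compared with each other. A gene was called when its false discovery rate (FDR) was under 0.05 and its fold over 2, which held for 232 genes higher and 229 lower in iSM KO. Prdm16, counted over the whole gene rather than over the floxed exon, stood at 183, 223 and 179 CPM in controls, against 93.8, 113 and 79.8 CPM in iSM KO. Its log2 fold change was -1.03 (standard error, SE, 0.14, FDR = 0.00265, edgeR). The smooth muscle markers summed to 22497 to 27516 CPM in controls and 24268 to 26745 CPM in iSM KO, so their ranges overlapped.

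Npy4r lies at chr14:34143992-34152489 (mm10) on the minus strand. GENCODE M21 gives it 1 transcript with 2 exons and 3627 bp, and all 1125 bp of coding sequence lie in 1 exon. No other annotated gene overlaps it. The bases before its annotated start are shown because Npy4r is the member that differed between the groups. They run over chr14:34152490-34152669 (RefSeq, GRCm38.p6, minus strand) and end just before the more distal of the 2 annotated starts, and the capitals mark 2 matches to the GC box GGGCGG.
Npy4r upstream: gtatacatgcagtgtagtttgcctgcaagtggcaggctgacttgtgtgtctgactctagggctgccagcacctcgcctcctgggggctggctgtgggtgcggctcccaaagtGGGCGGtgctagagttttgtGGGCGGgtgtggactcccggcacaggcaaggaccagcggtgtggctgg

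Of the 32851 promoter windows of 300 bases in the same table, 35.7% held a GC box on either strand, so the motif is common. The letters CCAAT, found in 37.4% of windows, and TATAAA, found in 13.6%, were absent from the Npy4r window on both strands. The Npy4r window was 62% G or C, against a median of 52.7% over all windows. The windows of Npy2r and Npy each held 1 GC box, and those of Npy5r and Npy each held 1 CCAAT match. The Npy1r window held none of the 3 motifs. Whether any of these motifs relates to the difference in Npy4r was not tested.

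Short reads can be placed on one receptor or another only where their sequences differ, so the coding sequences of the 4 receptors were compared. Aligned base for base, Npy4r shared 60.9% of bases with Npy1r, 57.6% with Npy2r and 61.3% with Npy5r. The longest identical run was 15 bases with Npy5r, 14 with Npy2r and 10 with Npy1r. The stretch around the longest of these runs, that with Npy5r, is shown for all 4 genes to let their differences be seen. The run of 10 bases with Npy1r lies elsewhere, at coding base 821 of Npy4r. Capitals mark bases shared with Npy4r at the aligned position, and in the Npy4r line the 27 bases that all 4 genes share.
Npy4r coding bases 219 to 281: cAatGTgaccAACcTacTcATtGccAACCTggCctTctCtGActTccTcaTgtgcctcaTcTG
Npy1r coding bases 213 to 275: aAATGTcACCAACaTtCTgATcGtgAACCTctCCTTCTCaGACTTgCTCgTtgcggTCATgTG
Npy2r coding bases 246 to 308: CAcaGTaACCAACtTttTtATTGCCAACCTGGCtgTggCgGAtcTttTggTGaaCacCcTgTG
Npy5r coding bases 285 to 344: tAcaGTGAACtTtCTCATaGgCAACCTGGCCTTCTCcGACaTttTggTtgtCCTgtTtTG

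A search of all GENCODE M21 transcripts found no other gene with a stretch of at least 100 bp and 95% identity to Npy4r, Npy2r, Npy5r or Npy. Transcripts of 97 genes held such a stretch of Npy1r, with the longest match at 144 bp of its 3454 bp of exon. How reads from that stretch were assigned is not given in the sources used here.

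Npy4r was low in control aortas and abundant in iSM KO aortas. It had 107, 122 and 67 counts in the 3 controls and 1837, 1593 and 1621 counts in the 3 iSM KO libraries. These correspond to 3.19, 3.17 and 2.81 CPM in controls, against 45.1, 45.6 and 44.4 CPM in iSM KO. The lowest iSM KO library therefore lay far above the highest control, and the libraries of each group lay close together. The means were 3.06 ± 0.22 CPM and 45.0 ± 0.64 CPM (SD, n = 3), which gave a log2 fold change of 3.87 with a standard error of 0.10, or 14.6-fold with a 95% interval of 12.8 to 16.7.

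The spread within each group was no wider than the counting itself would give. The coefficient of variation of Npy4r was 7.08% in controls, where counting error alone amounts to 10.4% on average, and 1.41% in iSM KO, where it amounts to 2.44%. Exact Poisson limits of 95%, which cover counting error only, were 2.18 to 3.57 CPM in Control 3, the shallowest library, and 42.2 to 46.6 CPM in iSM KO 3. Counted over all genes tested, 2.78% were called, 7.56% had an FDR under 0.05 and 27.9% had groups that did not overlap. Npy4r meets all 3 criteria, and since it was selected on this contrast nothing is read from that.

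Npy4r moved from the lower to the upper part of the expression range. Ranked by CPM per kilobase among the 16542 tested genes with a known exon length, it stood at the 25.7th to 28.4th percentile in the controls and at the 85.9th to 86.4th in the iSM KO libraries. Its fold was the 15th of 16565 in the upward direction. Of the 14 genes with a larger fold, only Tnnt2, which encodes cardiac troponin T, and Pde2a, which encodes a cyclic nucleotide phosphodiesterase, were as abundant as Npy4r in iSM KO. Both are named here after their values were seen, and their means were 718 and 56.1 CPM in iSM KO. Most genes with a larger fold thus started from and ended at lower levels than Npy4r. Receptor genes were also among the 14, such as Htr1d and Adra2b, likewise named after their values were seen. Their means were 0.0525 and 0.0372 CPM in controls, against 4.92 and 0.776 CPM in iSM KO.

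**Figure D1:**
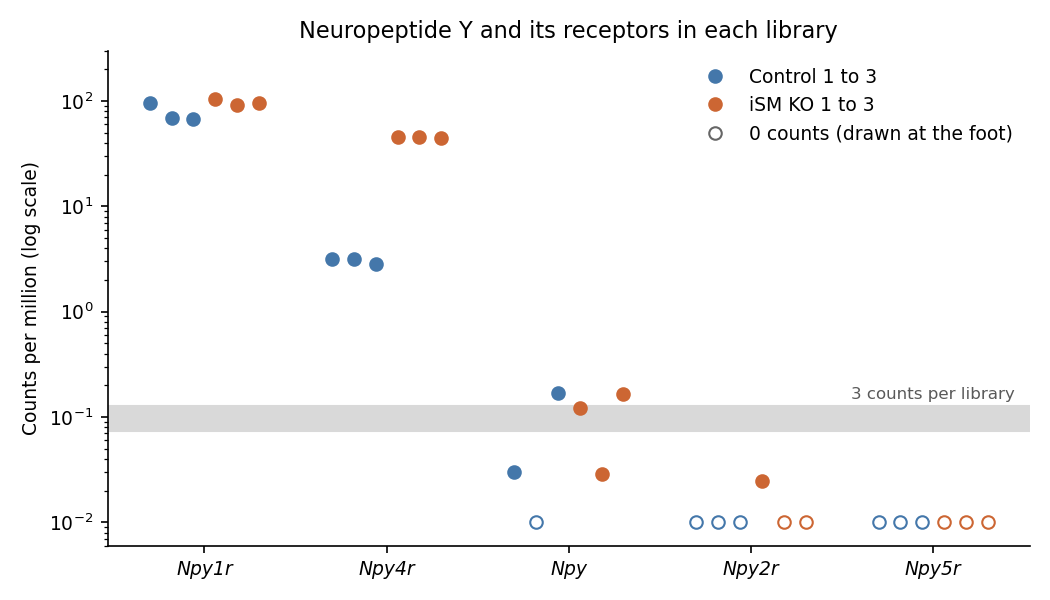
Level of each gene of the neuropeptide Y system in each library, in CPM on a log axis, with 1 point per library and open points for 0 counts drawn at the foot. The grey band spans the level of 3 counts across libraries. Npy1r was high in both groups, Npy4r lay near 3 CPM in controls and near 45 CPM in iSM KO, and the other 3 genes lay at or close to 0.

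Npy1r was the most abundant receptor of the system in every library. It lies at chr8:66697192-66706792 (mm10) on the plus strand, with 2 transcripts and 1146 bp of coding sequence, and no annotated gene overlaps it. Its counts were 3186, 2669 and 1600 in controls and 4281, 3181 and 3468 in iSM KO. These correspond to 95.1, 69.5 and 67.1 CPM in controls, against 105, 91.2 and 94.9 CPM in iSM KO. The groups overlapped, because Control 1 lay above 2 of the 3 iSM KO libraries. The means were 77.2 ± 15.5 and 97.0 ± 7.18 CPM (SD, n = 3), which gave a log2 fold change of 0.33 with a standard error of 0.13, or 1.26-fold with a 95% interval of 1.05 to 1.51. Without Control 1 the log2 fold change of Npy1r was 0.51 with a standard error of 0.09. In contrast to Npy4r, the coefficient of variation of Npy1r in controls, 20.1%, was far above its counting error of 2.09%.

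The ratio of the 2 receptors within a library does not depend on library size. Npy4r per kilobase divided by Npy1r per kilobase was 0.0320, 0.0435 and 0.0399 in the controls. It was 0.409, 0.477 and 0.445 in the iSM KO libraries, so no control approached any iSM KO library. Summed over both receptors the level was 23.2 ± 4.53 CPM per kilobase in controls and 40.5 ± 2.05 in iSM KO (SD, n = 3). Of this sum, Npy4r made up 3.70 ± 0.55% in controls and 30.7 ± 1.64% in iSM KO. Npy1r transcripts therefore remained the larger part in all 6 libraries. In bulk tissue a change in the number of cells that express a receptor and a change in its RNA per cell cannot be told apart.

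**Figure D2:**
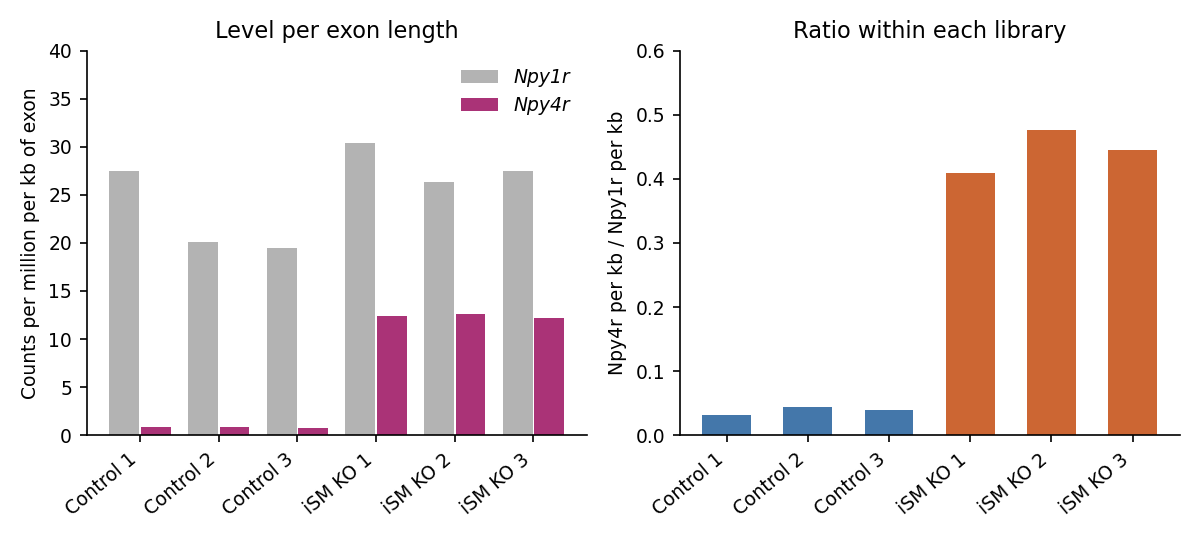
Left, level of Npy1r and Npy4r in each library in CPM per kilobase of exon. Right, the ratio of Npy4r to Npy1r per kilobase in each library, in blue for Control and orange for iSM KO. The ratio lay between 0.0320 and 0.0435 in controls and between 0.409 and 0.477 in iSM KO.

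The other receptors were at the limit of detection in both groups. Npy2r, at chr3:82538383-82548084, had 1 count in iSM KO 1 and 0 in the other libraries. Npy5r, at chr8:66679965-66688128, had 0 counts in all 6 libraries although it neighbours Npy1r, from which it is transcribed in the opposite direction. Npy6r, a related receptor gene, was also at 0 in every library. A count of 0 allows up to 3 counts, which corresponds to 0.0736 to 0.126 CPM depending on the library, for counting error only. Any level of these receptors under that limit was not detectable at this depth.

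The ligands were equally scarce. Npy, at chr6:49822710-49829507, had 1, 0 and 4 counts in controls and 5, 1 and 6 in iSM KO. Summed, 5 counts stood against 12, a ratio of 2.05 with an exact interval of 0.67 to 7.42 that covers counting error only. Pyy, which encodes peptide YY, and Ppy, which encodes pancreatic polypeptide, had 0 counts in all libraries. The preferred ligand of the receptor encoded by Npy4r was thus not detected as a transcript in this tissue in either group.

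Neuropeptide Y normally reaches an artery by its sympathetic nerves, whose cell bodies lie outside the vessel, and markers of these neurons were examined beside it. The 17 markers summed to 57.9 to 69.5 CPM in controls and 47.3 to 54.7 CPM in iSM KO, and 6 were tested. Th and Dbh, the defining enzymes of noradrenaline synthesis, are named here after their values were seen. Th, which encodes tyrosine hydroxylase, had 0, 0 and 3 counts in controls and 0, 0 and 2 in iSM KO. Dbh, which encodes dopamine beta-hydroxylase, had 0 counts in all libraries. By edgeR 1 of the 6 was called, against 2.78% of all genes tested, and 2 had an FDR under 0.05, against 7.56%. Tubb3, a neuronal tubulin, was called higher (log2 fold change 1.50, SE 0.24, FDR = 0.00622, edgeR). Uchl1, a ubiquitin hydrolase that made up most of the sum, was lower at a fold under 2 (log2 fold change -0.47, SE 0.09, FDR = 0.0114, edgeR). Of these markers, Th and Dbh were therefore at or near 0 in both groups, but others were detected. Stmn2, Slc18a2 and Snap25, named after their values were seen, stood at 3.84, 2.16 and 0.953 CPM in controls. In iSM KO they stood at 2.52, 2.01 and 1.75 CPM.

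Enzymes that process or cleave these peptides were examined beside their ligands and receptors. Of 18 genes in a list of the peptide family and its maturation, 9 were tested. Without the 5 members the list held 13 genes, of which 7 were tested. By edgeR 2 of the 7 were called, against 2.78% of all genes tested, while DESeq2 called 1 and limma-voom 0. Of the 2, Scg5 passed the filter on low counts only through the iSM KO group, where it is high. The median log2 fold change of the 7 was 0.29, against -0.01 over all genes tested. Pcsk2 and Pcsk1n, named after their values were seen, had log2 fold changes of 1.23 and 0.49. They too passed the filter only through the iSM KO group, where they are higher, so nothing is read from that median. Cpe, which encodes carboxypeptidase E, stood at 941 ± 90.8 CPM in controls, against 1149 ± 16.1 CPM in iSM KO (SD, n = 3), which gave a log2 fold change of 0.29 (SE 0.10, FDR = 0.125, edgeR). Pam, which encodes the enzyme that amidates the peptide, stood at 1378 ± 59.6 and 1306 ± 11.2 CPM (SD, n = 3), which gave a log2 fold change of -0.08 (FDR = 0.650, edgeR). Both are general enzymes of peptide maturation and far more abundant than any gene of the neuropeptide Y system itself.

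Both called genes of this list were scarce. Scg5, which encodes the chaperone of a prohormone convertase, had 5, 5 and 3 counts in controls and 18, 12 and 25 in iSM KO. Its log2 fold change was 1.83 (SE 0.44, FDR = 0.0381, edgeR), with no overlap between the groups. Scg5 passed the filter on low counts only through the iSM KO group, where it is high. Nothing is therefore read from its call or from the lack of overlap. Fap, which encodes a membrane protease related to dipeptidyl peptidase 4 and found in activated fibroblasts, had 106, 57 and 73 counts in controls and 35, 41 and 28 in iSM KO. Its log2 fold change was -1.45 (SE 0.34, FDR = 0.0355, edgeR). Scg5 was called in none of the 6 fits that left out 1 library and Fap in 1 of them, that without Control 2. Dpp4, the peptidase that trims neuropeptide Y and also named after its values were seen, was not tested, with 16, 22 and 6 counts in controls and 1, 2 and 16 in iSM KO.

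Of 16 genes of Gi/o coupling and receptor desensitisation, 12 were tested with edgeR and none was called, against 2.78% of all genes tested. None in a list of 12 is near that share. DESeq2 and limma-voom also called 0, and 2 of the 12 had an unadjusted p under 0.05 by each tool. The share of all genes tested with an unadjusted p under 0.05 was not computed, here or for the lists below. Their median log2 fold change was 0.04. Gnai2, Gnai1 and Gnai3, the inhibitory G protein alpha subunits with the highest levels per kilobase, had log2 fold changes of 0.06, -0.02 and -0.08. Gnao1, which encodes the Go alpha subunit, was higher at a fold under 2. It stood at 68.0 ± 13.2 CPM in controls, against 106 ± 8.42 CPM in iSM KO (SD, n = 3), which gave a log2 fold change of 0.64 (SE 0.13, FDR = 0.0196, edgeR). Grk3, which encodes a kinase that desensitises receptors, was lower by a smaller amount. It stood at 17.6 ± 0.63 and 13.2 ± 1.20 CPM (SD, n = 3), which gave a log2 fold change of -0.42 (SE 0.10, FDR = 0.0381, edgeR). Gnao1 and Grk3 were the 2 of 12 with an FDR under 0.05, against 7.56% of all genes tested. They are named for that after their values were seen.

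Npy4r was set beside 62 receptors for other peptides, chosen with earlier results of these data known. Of these, 15 were tested with edgeR and none was called, against 2.78% of all genes tested. None had an FDR under 0.05, against 7.56% of all genes tested, and their median log2 fold change was -0.01. None in a list of 15 is near those shares. An unadjusted p under 0.05 was reached by 3 of them, DESeq2 gave 1 an FDR under 0.05, and neither DESeq2 nor limma-voom called any. Sstr3, named after its values were seen, had the largest fold of the 15 (log2 fold change 1.35, SE 0.42, FDR = 0.0912, edgeR). It passed the filter on low counts only through the iSM KO group. With Npy4r and Npy1r included, Npy1r ranked first of 64 per kilobase in every library. Npy4r ranked 9, 9 and 7 in the controls and 3, 2 and 3 in the iSM KO libraries. The receptors nearest to it in iSM KO, at a mean of 12.4 CPM per kilobase for Npy4r, were Calcrl at 13.9 and Pth1r at 5.95. Calcrl encodes the receptor for calcitonin gene-related peptide and adrenomedullin, and it stood at 10.1 CPM per kilobase in controls (log2 fold change 0.46, SE 0.16, FDR = 0.120, edgeR). Pth1r, the parathyroid hormone receptor gene, stood at 5.99 CPM per kilobase in controls (log2 fold change -0.01, SE 0.09, FDR = 0.965, edgeR). Ednra, the endothelin A receptor gene, stood at 1.52 in controls and 1.87 in iSM KO (log2 fold change 0.30, FDR = 0.225, edgeR). Calcrl lay above Npy4r in iSM KO 1 and 3 and below it in iSM KO 2, so the order of the 2 genes was not stable over libraries.

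**Figure D3:**
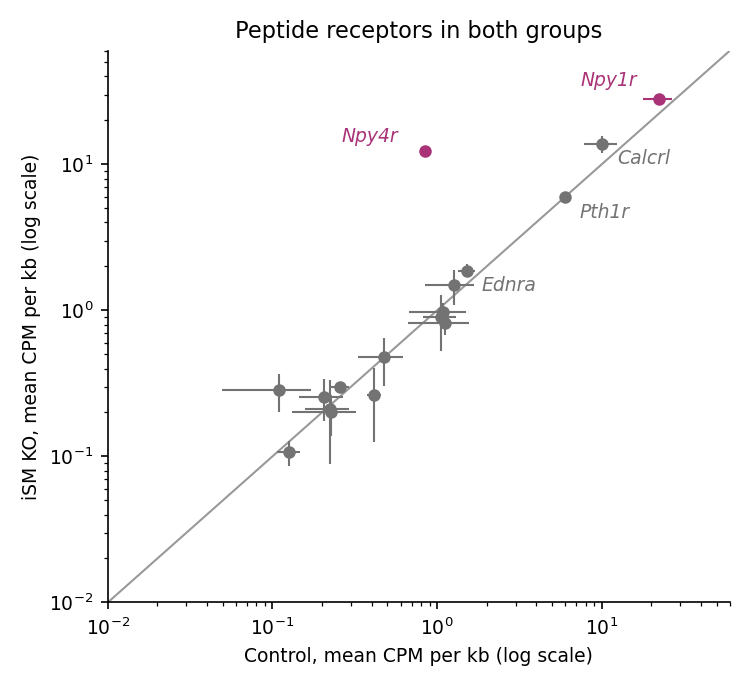
Mean level per kilobase of exon in Control and iSM KO for Npy4r, Npy1r and the 15 tested receptors for other peptides, on log axes, with SD over 3 libraries as bars. The line marks equal levels in both groups. Npy4r lies far above the line, at 0.844 CPM per kilobase in Control and 12.4 in iSM KO.

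The genes around Npy4r were examined to see whether they differed as well. Of 38 annotated genes within 500 kb, 13 were tested and none was called by edgeR, DESeq2 or limma-voom. By edgeR 2.78% of all genes tested were called, so none in a list of 13 is near that share. The median log2 fold change of the 13 was -0.21. By each tool 6 of them had an unadjusted p under 0.05 and 2 an FDR under 0.05. The edgeR share over all genes tested was 7.56% for that FDR. Sncg, Bmpr1a and Glud1 had the highest levels per kilobase, and their log2 fold changes were -0.64, -0.21 and -0.01. Sncg, which encodes gamma-synuclein, passed the FDR but not the fold (SE 0.14, FDR = 0.0243, edgeR). Ldb3, which encodes a Z-disc protein and lies 374 kb upstream, was higher with a log2 fold change of 0.59 (SE 0.12, FDR = 0.0226, edgeR). The 2 tested genes nearest to Npy4r on its upstream side, the pseudogene Rpl23a-ps3 and Gprin2, had log2 fold changes of 0.31 and 0.08. The changes of the tested neighbours were thus all much smaller than that of Npy4r.

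On the downstream side, 2 genes with too few counts to be tested were nearly absent from controls and present in each iSM KO library. A630023A22Rik, on the same strand as Npy4r at chr14:34051126-34102754, has its near end beyond the 3′ end of Npy4r, at -41.2 kb. It had 1, 0 and 0 counts in controls and 6, 5 and 8 in iSM KO, a ratio of 16.2 with an exact interval of 2.58 to 674. Antxrl, an anthrax toxin receptor-like gene at chr14:34052707-34076405 on the plus strand, had 0, 1 and 0 counts in controls and 15, 4 and 18 in iSM KO, a ratio of 31.6 with an exact interval of 5.33 to 1281. These intervals cover counting error only and are wide because the controls held 1 count for each gene.

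In an edgeR fit without the filter, where 2.05% of 30712 genes were called, Antxrl was called with a log2 fold change of 4.58 (SE 1.11, FDR = 0.00945). In the same fit A630023A22Rik was not called (log2 fold change 3.63, SE 1.31, FDR = 0.122). Anxa8, which encodes an annexin and lies between Antxrl and Npy4r at chr14:34085981-34100571, had 35, 35 and 18 counts in controls and 49, 59 and 89 in iSM KO (log2 fold change 0.96, SE 0.32, FDR = 0.114, edgeR). The body of A630023A22Rik spans Antxrl and Anxa8 on the opposite strand, and the strand setting of the counting is not given in the sources used here. Whether the exons of these genes overlap was not examined, so it is not known whether their reads can be told apart. Ldb3, Anxa8, Antxrl, A630023A22Rik and the 2 upstream neighbours were singled out after their values were seen.

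**Figure D4:**
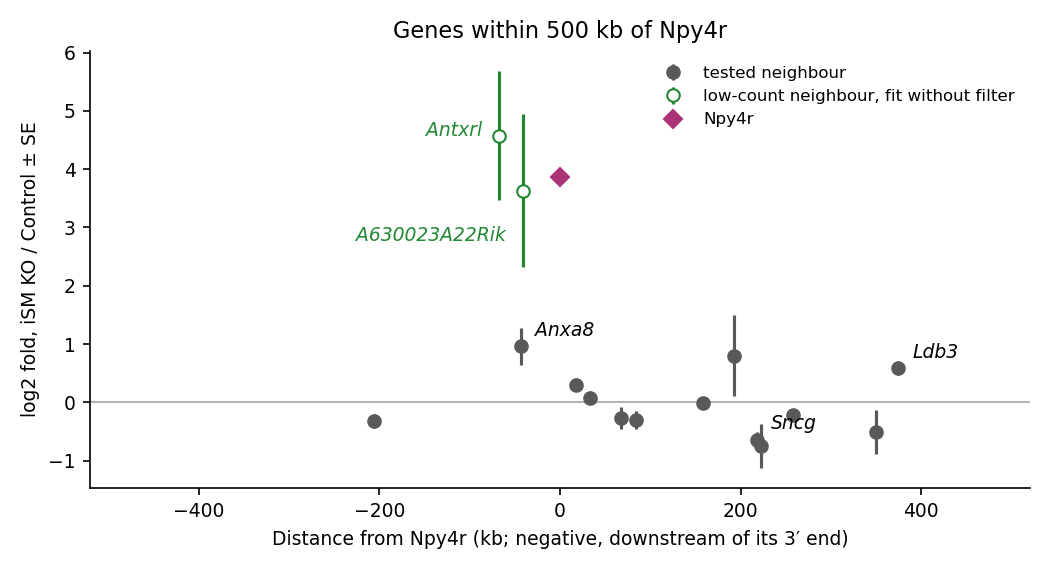
Log2 fold change (iSM KO over Control, with standard error) of the 13 tested genes within 500 kb of Npy4r, plotted by distance from Npy4r in kilobases, with negative values on the side of its 3′ end. Open points show Antxrl and A630023A22Rik from the fit without the filter on low counts. Tested neighbours lie between -0.75 and 0.96, against 3.87 for Npy4r.

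The 5 tested genes with a pattern over the 6 libraries nearest to that of Npy4r were Eef1a2, Gm45193, Ndufs5-ps, Chrdl1 and Masp1. Likeness was measured as the root mean square difference of log2 CPM after the control mean of each gene was subtracted. A prior count of 2 was added before the log, which shrinks the differences of genes with few counts. Eef1a2, a translation elongation factor gene of muscle and neurons, was nearest at 0.22. It had 87, 75 and 69 counts in controls and 1584, 1369 and 1388 in iSM KO, and its level per kilobase was 1.19 in controls and 18.6 in iSM KO. The differences of the other 4 genes were 0.29, 0.32, 0.32 and 0.32. Chrdl1, which encodes a secreted antagonist of bone morphogenetic proteins, stood at 20.9 ± 4.24 CPM in controls and at 237 ± 42.1 CPM in iSM KO (SD, n = 3). Masp1, a complement protease gene, had 11, 6 and 4 counts in controls and 199, 150 and 170 in iSM KO. Gm45193 had 0 counts in all controls and 17 to 34 in iSM KO, so its fitted fold is not a bound. Its fitted log2 fold change was 7.70, against 3.87 for Npy4r, so its nearness depends on the prior count. Gm45193 and Masp1 passed the filter on low counts only through the iSM KO group, where they are high. The 5 genes lie on chromosomes 2, 6, 16, X and 16, and none is on chromosome 14 with Npy4r.

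Markers of other cell types were summed in the same libraries, and of these lists only the adipocyte markers held genes called lower. Over all genes tested, 2.78% were called in either direction by edgeR and 7.56% had an FDR under 0.05. Summed adipocyte markers ran from 57.3 to 233 CPM in controls and from 20.5 to 31.2 CPM in iSM KO. Of 9 tested genes, 7 were called lower by edgeR, 8 by DESeq2 and 3 by limma-voom. Adipoq, called by edgeR, and Retn, not called by it, passed the filter on low counts only through the Control group, where they are high. Nothing is therefore read from the part of Adipoq and Retn in these counts. Fibroblast markers summed to 1070 to 1310 CPM and 789 to 813 CPM, where an unadjusted p under 0.05 was reached by 7 of 7 tested genes in edgeR, by 5 in DESeq2 and by 4 in limma-voom. None of the 7 passed the FDR with edgeR or limma-voom, and 2 did with DESeq2. Endothelial markers summed to 475 to 992 CPM and 247 to 752 CPM, and macrophage markers to 26.3 to 31.0 CPM and 11.0 to 30.4 CPM, again with no gene past the FDR in edgeR among 7 and 6 tested. An unadjusted p under 0.05 was reached by 0 endothelial and 2 macrophage genes, and DESeq2 gave 1 macrophage gene an FDR under 0.05. Cardiomyocyte markers summed to 119 to 148 CPM and 161 to 215 CPM, and 2 of 4 tested genes passed the FDR with none called. These 2 were Ryr2 and Actn2 (log2 fold changes 0.50 and 0.78, FDR = 0.0459 and 0.0154, edgeR). Ryr2 alone made up most of the sum, at a Control mean of 127 CPM against 180 for iSM KO. The other 2 tested genes, Myh6 and Tnni3, had log2 fold changes of -0.88 and -0.24 (FDR = 0.369 and 0.789, edgeR). The sum therefore follows Ryr2 rather than the markers as a set. Schwann cell markers summed to 5.28 to 8.09 CPM and 5.47 to 11.2 CPM, where none of 4 tested genes had an unadjusted p under 0.05 by any of the 3 tools. Among 8 smooth muscle markers, Des was called higher (log2 fold change 1.24, FDR = 0.00381, edgeR) and Myocd passed the FDR (log2 fold change 0.65, FDR = 0.0109, edgeR). Des, Myocd, Tubb3, Uchl1 and the named adipocyte, fibroblast and cardiomyocyte markers were likewise singled out among their lists after their values were seen.

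The adipocyte sum was 57.3, 233 and 182 CPM in Control 1, 2 and 3, and Npy4r stood at 3.19, 3.17 and 2.81 CPM in the same libraries. Npy1r was highest among controls in Control 1, where the adipocyte sum was lowest. The part of these other cell types in the values of Npy4r and Npy1r was not tested.

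The fold of Npy4r hardly moved when the processing was changed. Over 12 alternatives, which included other tools and filters and leaving out each library in turn, its log2 fold change lay between 3.82 and 3.90. That of Npy1r lay between 0.24 and 0.51, with the lowest value without Control 3 and the highest without Control 1.

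**Figure D5:**
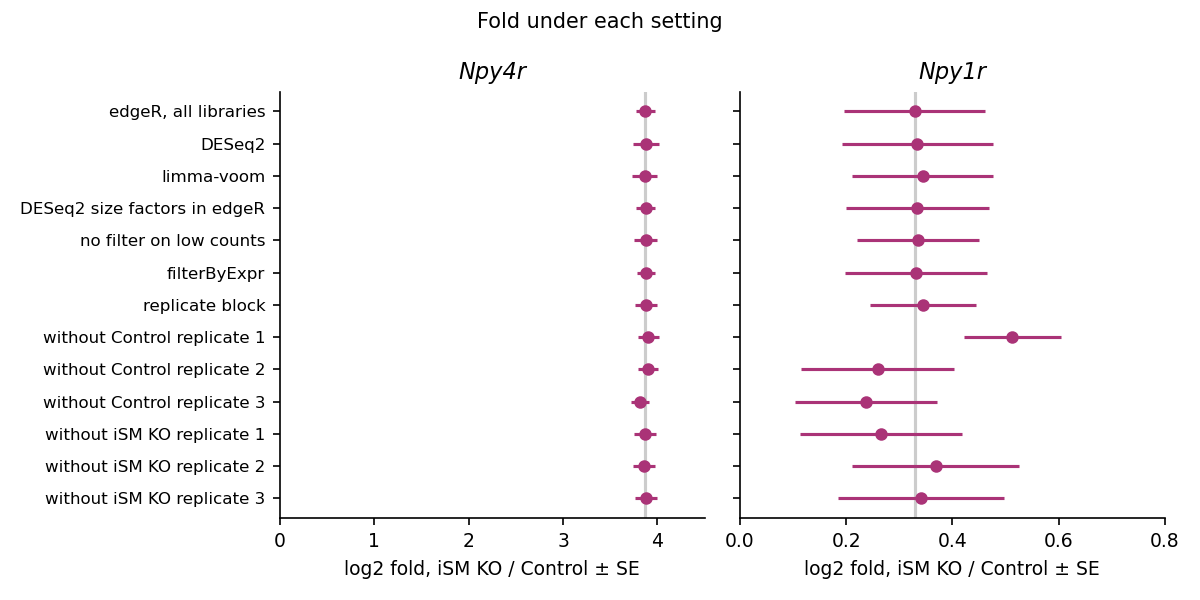
Log2 fold change (iSM KO over Control, with standard error) of Npy4r and Npy1r under the main edgeR fit and each of 12 alternatives, on axes of different range that both start at 0. Npy4r stayed between 3.82 and 3.90, and Npy1r between 0.24 and 0.51.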

How the data were processed

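Total RNA of 3 Control and 3 iSM KO aortas, each from 1 mouse, was made into ribosomal RNA-depleted libraries and sequenced. The authors deposited estimated counts per gene from DRAGEN on mm10, which need not be whole (10.9 to 12.2% were not), and these were rounded here. Genes with more than 10 counts in all 3 libraries of a group were tested by edgeR 4.0.16 (R 4.3.3) with TMM scaling and quasi-likelihood tests, with Benjamini-Hochberg adjustment over all genes tested. The fit was first tested on simulated data. DESeq2 1.42.0, limma-voom (limma 3.58.1), other size factors and filters, a replicate block and leaving out each library were the alternatives. Exon lengths came from GENCODE M21, another release than the counts used, and matched 16542 of 16565 tested genes. Transcripts were compared with blastn 2.17.0. The 5 members and the lists (peptide family and maturation, Gi/o coupling, peptide receptors, neighbours within 500 kb, and 8 sets of cell type markers) were chosen with earlier results of these data known. Genes were named if they were members, related ligands or receptors, called in a list, among the 3 highest of a list, the 5 nearest profiles, or Prdm16. Others are said to be chosen after their values were seen.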

Additional observations from a re-analysis of the deposited data

How the results depend on the processing

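The log2 fold changes of Npy4r and Npy1r kept their direction under all 12 alternatives. Npy1r moved most without Control 1, from 0.33 to 0.51, and Npy4r without Control 3, from 3.87 to 3.82. The number of called genes in the list of the peptide family and its maturation, 3 with all libraries, was 1 under limma-voom and 1 under the replicate block, and 1 to 2 when 1 library was left out, where Scg5 in 6 of 6 and Fap in 5 of 6 fits lost the call. Among the neighbours of Npy4r, 1 gene instead of 0 was called without the filter on low counts, and 0 to 1 when 1 library was left out (1 without iSM KO 2, Antxrl in both). Without iSM KO 2, Antxrl passed the filter only through the iSM KO group, where it is high, so nothing is read from that call. Among the peptide receptors the count was 0 to 1 when 1 library was left out, with 1 without Control 1 (Sstr3, named after its values were seen). There too Sstr3 passed the filter only through the iSM KO group. Over all genes, 461 calls became 290 to 528 when 1 library was left out, with the lowest count without iSM KO 2, and 353 under the replicate block. Gi/o coupling genes had 0 calls throughout. The replicate numbers did not pair the libraries (correlations of same-numbered libraries of -0.13, -0.05 and -0.11), and under the block the log2 fold change of Npy4r was 3.88. At this depth Npy, Npy2r and Npy5r could not be compared between groups. Depth also limits Scg5, Antxrl and A630023A22Rik, which have 1 to 13 counts in all controls together.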
